A study of Mus musculus with 30 samples.

Results

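The step from HE2 cells to progenitor cells was measured in mouse cells that lack the DNA-binding domain of the transcription factor Sp1. It rests on 4 of the 30 samples of the series: HE2 cells and progenitor cells of the Sp1_deltaDBD genotype, 2 biological replicates each. HE2 is the second stage of hemogenic endothelium, the endothelial cell from which blood cells emerge. All samples derive from the E14 mouse embryonic stem cell (ESC) line. ESC were differentiated as embryoid bodies, Flk1+ mesoderm cells were purified and seeded into blast culture, and the later populations were sorted on day 2 of that culture. HE2 cells were sorted as Kit+ CD41+ Tie2+ and progenitor cells as Kit+ CD41+ Tie2-. Sp1_deltaDBD cells still make a truncated Sp1 protein without the DNA-binding domain, so they model reduced rather than absent Sp1 function. The comparison genotypes are unmodified E14 cells (WT) and Sp3KO cells, which lack the related factor Sp3. A single line stands for each genotype, so an effect of the mutation and one of the line cannot be told apart. Of the 14685 genes in the deposited table, 14525 exceeded 1 FPKM (fragments per kilobase of transcript, scaled to the mapped fragments of the sample) in at least 1 sample and were tested. Sample values are given below for replicate 1 and then replicate 2.

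Blood cells arise in the embryo when hemogenic endothelial cells lose their junctions and endothelial program and acquire a hematopoietic one, a change known as the endothelial-to-hematopoietic transition. In blast cultures the first products include primitive red cells, which carry embryonic globins, and megakaryocyte and myeloid precursors. Sp1 and Sp3 are zinc finger proteins that bind GC-rich boxes, with the core GGGCGG, in the promoters of very many genes.

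The values were quantile-normalised by the authors, so the samples share 1 distribution, and the sequencing depth behind each value is unknown. Between 934 and 1294 genes lay at the lowest value of a Sp1_deltaDBD sample, and such genes are described as listed at the lowest value. The FPKM of the whole Sp1 gene was 17.2 and 23.5 in HE2, 14.8 and 20.5 in progenitor cells and 26.3 to 33.6 in WT. It also covers exons outside the DNA-binding domain and does not check the genotype label. Sp3 stood at 3.38 to 4.81 FPKM in Sp3KO cells and at 30.9 to 58.1 in WT. Among the sorted surface proteins, Tek, which encodes Tie2, had 85.6 and 72.9 FPKM in Sp1_deltaDBD HE2 and 15.7 and 9.54 in progenitor cells, and its fall is what the sort selected. Kit was at 26.2 and 50.3 and then at 30.4 and 46.4 FPKM, and Itga2b, which encodes CD41, at 97.0 and 115 and then at 59.1 and 119. These ranges overlapped between the populations.

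Summed levels of muscle and epithelial genes split the samples by replicate number. Acta2, smooth muscle actin, had 239 and 21.6 FPKM in Sp1_deltaDBD HE2 and 89.5 and 14.4 in progenitor cells, and Krt18, an epithelial keratin, had 71.1 and 5.12 and then 41.4 and 5.21. The summed FPKM of 18 muscle genes was 757 and 208 in HE2, against 380.4 and 186 in progenitor cells. That of 15 epithelial genes was 151 and 27.3 and then 104 and 39.1. Both replicates 1 thus had the higher sums, and the same split was present in WT, where the muscle sum was 924 and 282 in HE2, against 644 and 301 in progenitor cells. By gene, replicate 1 of Sp1_deltaDBD cells was above replicate 2 for 15 of 18 muscle genes in HE2 and 13 in progenitor cells. For the 15 epithelial genes these counts were only 7 and 10, so that split did not hold for most of them in HE2. The part of these cells in the results below was not tested. List counts without both samples numbered 1 are given beside the main ones where they moved by over 1.5 times. The exceptions are the erythroid and muscle lists, whose total calls also fell by over 1.5 times. This alternative was chosen after seeing the data.

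Globin and red cell genes rose and endothelial and basement membrane genes fell between Sp1_deltaDBD HE2 and progenitor cells. By limma on log2(FPKM + 0.1), fitted over all 30 samples with Benjamini-Hochberg adjustment, 977 genes were higher (6.73% of the genes tested) and 1322 were lower (9.1%) in progenitor cells at an adjusted p below 0.05. More than 2-fold changes accounted for 618 and 917 of them. The median log2 change of all genes was 0.05. In bulk samples, fewer cells of a type and less RNA per cell cannot be told apart, which applies to every gene group below. The 2299 calls became 1503 without replicate 1 of HE2, 979 without both samples numbered 1 and 1396 when only the 12 HE2 and progenitor samples of the series were fitted. With the 4 Sp1_deltaDBD samples fitted alone 90 genes passed.

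**Figure D1:**
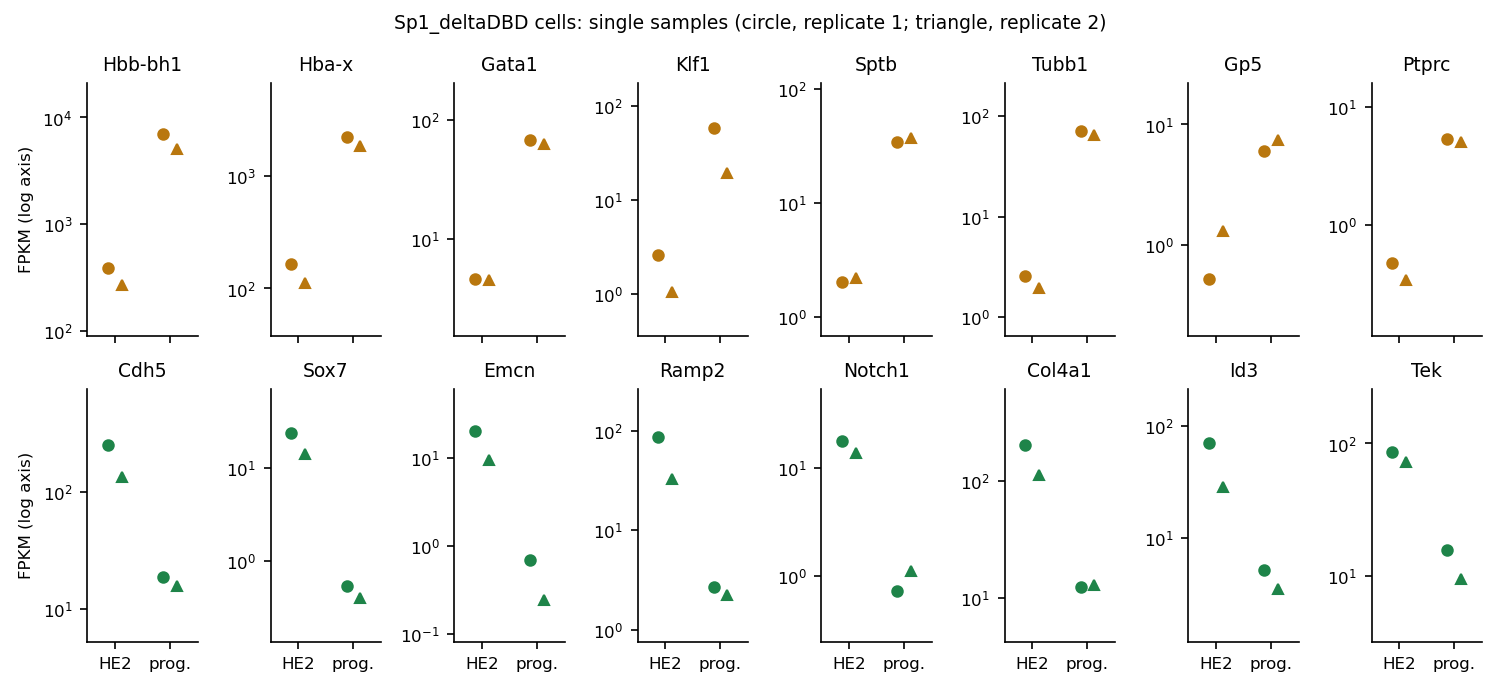
FPKM (log axis) of 16 genes in the 2 HE2 and 2 progenitor samples of Sp1_deltaDBD cells, each point a sample (circles replicate 1, triangles replicate 2). The upper row holds genes higher in progenitor cells, such as Hbb-bh1 (386 and 268 against 7014 and 5094 FPKM), and the lower row genes lower there, such as Cdh5 (247 and 134 against 18.9 and 15.7), with no overlap between the populations in any panel. The 16 genes were picked from those called, so the lack of overlap adds no support.

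The globin genes showed the largest median change of the gene lists examined: 9 of 10 were higher in progenitor cells and none was lower, with a median log2 change of 4.31 (6 higher without both samples numbered 1). Hbb-bh1, an embryonic beta-like globin of primitive red cells, was at 386 and 268 FPKM in HE2 and at 7014 and 5094 in progenitor cells (log2 change 4.22, SE 0.64, adjusted p = 9.99e-05). Both progenitor samples were far above both HE2 samples. Hba-x, the embryonic zeta-globin, went from 166 and 112 to 2259 and 1849 FPKM (3.90, adjusted p = 0.000377). Hbb-y, the embryonic epsilon-like globin, went from 22.7 and 21.4 to 268 and 262 FPKM (3.58, adjusted p = 0.000289). The 3 embryonic genes kept their order through the step, with Hbb-bh1 the most abundant and Hbb-y the least. Globins made up 0.145% and 0.0952% of the summed FPKM in HE2 and 2.45% and 1.83% in progenitor cells.

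The adult alpha-globins are near-identical copies, and their single values depended on how reads were shared between them. Hba-a2 was at 47.7 and 0.475 FPKM in HE2 and at 886 and 479.7 in progenitor cells (log2 change 6.96, SE 1.25, adjusted p = 0.000533), and Hba-a1 at 0.862 and 10.7 and then at 46.9 and 256 (5.09, adjusted p = 0.0182). The high HE2 sample differed between the copies. Their sum was 48.5 and 11.1 FPKM in HE2 and 933 and 736 in progenitor cells. The log2 change of that sum, averaged over the replicate numbers, was 5.15. The adult beta-globin genes, summed over 4 annotated copies, were at 7.71 and 7.84 FPKM in HE2 and at 189 and 145 in progenitor cells. Their log2 change, averaged in the same way, was 4.39. Of these copies Hbb-bt rose (0.00093, which is the lowest value of that sample, and 0.268 to 22.8 and 13.7 FPKM, adjusted p = 0.0005), whereas Hbb-bs, at 4.56 and 0.288 and then at 131 and 0.11 FPKM, did not pass the test (adjusted p = 0.567). The theta-globins Hbq1a and Hbq1b were at the lowest value in 3 of the 4 HE2 measurements and at 1.91 to 7.6 FPKM in progenitor cells.

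Genes of the red cell membrane and erythropoietin receptor rose as a group. Of 23 erythroid genes tested, 19 were higher in progenitor cells, 1 was lower and 3 were not called, with a median log2 change of 3.11. Sptb, the beta-spectrin of the membrane skeleton, had 2.05 and 2.23 FPKM in HE2 and 33.8 and 37.3 in progenitor cells (log2 change 3.99, adjusted p = 4.08e-07), and both populations were tight. Tmod1, which caps actin filaments in that skeleton, had 0.774 and 1.8 and then 23.5 and 19.8 FPKM (4.07, adjusted p = 7.62e-05). Kel, which carries the Kell blood group, had 0.227 and 0.0769 and then 6.33 and 3.65 FPKM (4.35, adjusted p = 4.56e-07). Trim10, a protein of terminal erythroid differentiation, had 0.853 and 0.73 and then 21.9 and 13.3 FPKM (4.27, adjusted p = 2.02e-05). Epor, the erythropoietin receptor, changed less, from 4.08 and 2.51 to 22.5 and 20.1 FPKM (2.70, adjusted p = 8.72e-05). The exception was Aqp1, a water channel of both red cells and endothelium, which fell from 5.45 and 1.7 to 0.263 and 0.261 FPKM (-3.13, adjusted p = 0.000416).

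Enzymes of heme synthesis rose along the pathway. Of 20 genes of heme synthesis and iron handling, 13 were higher, 2 were lower and 5 were not called, with a median log2 change of 1.24. Alas2, the erythroid enzyme of the first step, had 5.98 and 6.48 FPKM in HE2 and 78.3 and 44.7 in progenitor cells (log2 change 3.23, SE 0.45, adjusted p = 3.73e-05), whereas its housekeeping counterpart Alas1 fell (-0.55). The later enzymes Alad, Uros, Urod, Cpox, Ppox and Fech all rose, by 1.14 to 2.07. Tfrc, the transferrin receptor, was at 42.1 and 68.0 and then at 133 and 117 FPKM (1.22, adjusted p = 0.00119), and Slc25a37, the mitochondrial iron importer, at 5.25 and 4.77 and then at 24.3 and 15.7 (1.95, adjusted p = 7.93e-05). Hmox1, the heme-degrading oxygenase, fell from 21.5 and 15.4 to 6.29 and 6.18 FPKM (-1.53, adjusted p = 3.83e-05).

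Regulators of blood formation moved in both directions, with a smaller median than the red cell genes. Of 19 hematopoietic regulators, 5 were higher, 2 lower and 12 not called, with a median log2 change of 0.46 (4 higher and none lower without both samples numbered 1). Gata1, the master regulator of red cells and megakaryocytes, had 4.59 and 4.55 FPKM in HE2 and 68.1 and 62.6 in progenitor cells (log2 change 3.81, SE 0.83, adjusted p = 0.00289, and 0.0877 and 0.0505 without both samples numbered 1 and 2). Klf1, the activator of globin genes, had 2.59 and 1.06 and then 58.6 and 19.3 FPKM (4.26, adjusted p = 0.0011). Nfe2 had 39.6 and 42.5 and then 145 and 148 FPKM (1.83, adjusted p = 1.97e-05), and Gfi1b had 17.8 and 15.9 and then 54.0 and 65.6 (1.82, adjusted p = 0.00181). Gfi1, the relative of Gfi1b and like it a repressor of the endothelial program, moved the opposite way, from 9.39 and 9.84 to 2.89 and 4.03 FPKM (-1.47, adjusted p = 0.00596). Spi1, which encodes the myeloid factor PU.1, was at 5.63 and 5.81 and then at 14.5 and 16.1 FPKM but did not pass (1.40, adjusted p = 0.0732).

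The heptad factors, which act together on hematopoietic enhancers, were mostly already present in HE2. Of the 7, only Lmo2 was called: 49.0 and 46.8 FPKM in HE2 against 93.7 and 84.9 in progenitor cells (log2 change 0.90, adjusted p = 0.00606). None was called without both samples numbered 1. Tal1 was at 57.4 and 71.7 and then at 75.1 and 99.8 FPKM (0.43, adjusted p = 0.492). Runx1, which the transition requires, was at 9.94 and 40.1 FPKM in HE2 and at 12.7 and 67.5 in progenitor cells (0.55, SE 0.70, adjusted p = 0.703). The spread of Runx1 between replicates of a population was larger than the difference between populations, and leaving out replicate 1 of HE2 turned its sign (-0.45). Gata2 (-0.62, adjusted p = 0.0579), Erg (-0.59, adjusted p = 0.251) and Fli1 (-0.49, adjusted p = 0.323) had lower means in progenitor cells without passing the test.

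Megakaryocyte and platelet genes also rose. Of 32 genes tested, 17 were higher, 1 was lower and 14 were not called, with a median log2 change of 1.21 (10 higher without both samples numbered 1, and 11 without replicate 1 of HE2). Tubb1, the tubulin of the platelet marginal band, had 2.57 and 1.95 FPKM in HE2 and 71.3 and 65.7 in progenitor cells (log2 change 4.87, SE 0.61, adjusted p = 1.3e-05). Subunits of the von Willebrand factor receptor rose together: Gp1bb from 0.255 and 0.0723 to 3.74 and 4.77 FPKM (4.13, adjusted p = 1.94e-05), Gp5 from 0.516 and 1.3 to 5.99 and 7.39 (2.86, adjusted p = 1.77e-05) and Gp9 from 0.74 and 0.681 to 4.95 and 7.57 (2.94, adjusted p = 0.000517). Pf4, a chemokine of platelet granules, went from 1.45 and 1.8 to 18.4 and 9.06 FPKM (2.92, adjusted p = 0.0115). Plek, the platelet protein pleckstrin, went from 16.5 and 30.8 to 106 and 138 FPKM (2.42, adjusted p = 0.000165). Vwf (-0.15) was among the genes not called, and Pdgfb fell from 21.2 and 15.6 to 6.34 in both progenitor samples (-1.5, adjusted p = 0.00119). Pdgfb is made by endothelium as well as by platelets.

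Some myeloid and general leukocyte genes rose. Of 21 myeloid genes 11 were higher and none lower, with a median log2 change of 1.61, and of 26 leukocyte genes 11 were higher and none lower, with a median of 1.15. Without both samples numbered 1 these counts were 5 and 7, and the myeloid count was 7 without replicate 1 of HE2 or either progenitor sample. Ptprc, which encodes the leukocyte antigen CD45, had 0.475 and 0.341 FPKM in HE2 and 5.36 and 5.11 in progenitor cells (log2 change 3.4, SE 0.40, adjusted p = 7e-06). Itgam, the CD11b integrin chain of myeloid cells, had 0.0786 and 0.175 and then 1.87 and 3.69 FPKM (3.62, adjusted p = 3.6e-05). Csf1r, the macrophage growth factor receptor, had 0.437 and 0.602 and then 2.84 and 2.17 FPKM (2.07, adjusted p = 0.000563). All 3 stayed below 6 FPKM in all 4 samples. Csf2rb, the shared receptor chain for IL-3 and GM-CSF, was higher, at 2.69 and 5.03 and then at 15.4 and 37.0 FPKM (2.66, adjusted p = 0.000109). The signaling proteins Syk (3.09 and 4.42 to 17.7 and 26.9 FPKM) and Ptpn6 (6.28 and 5.79 to 35.0 and 39.4 FPKM) rose by 2.53 and 2.60. Mpo, the granule peroxidase of early myeloid cells, stood at 16.9 and 35.5 FPKM in HE2 and at 23.5 and 38.4 in progenitor cells.

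**Figure D2:**
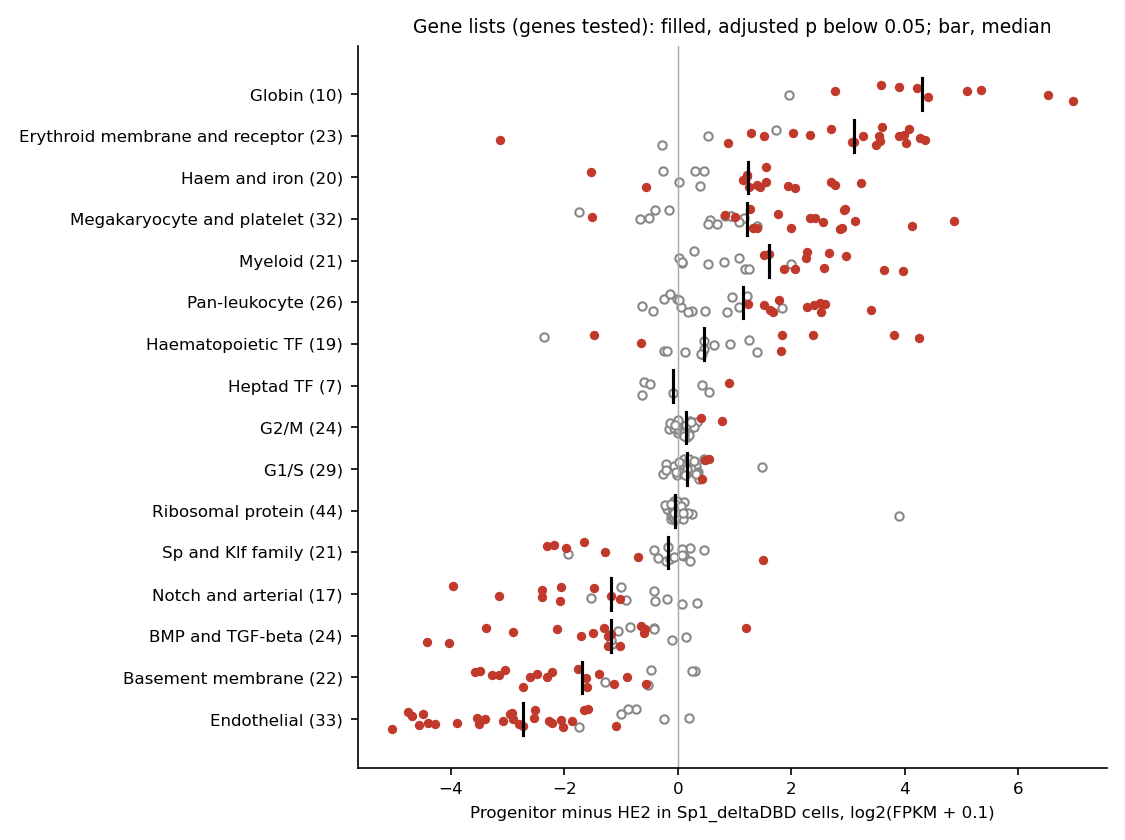
Change from HE2 to progenitor cells in Sp1_deltaDBD cells on the log2(FPKM + 0.1) scale for the tested genes of 16 lists, each point a gene (filled, adjusted p below 0.05 by limma), with the list median as a bar and the number of genes in brackets. Globin genes lie farthest to the right (median 4.31) and endothelial genes farthest to the left (median -2.72), while ribosomal protein and cell cycle genes lie around 0.

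Endothelial identity genes fell. The populations were separated by Tie2, and the part of that sort in the fall of these, the Notch and the basement membrane genes was not tested. Of 33 tested, 27 were lower in progenitor cells, none was higher and 6 were not called, with a median log2 change of -2.72. Cdh5, the VE-cadherin of endothelial junctions, had 247 and 134 FPKM in HE2 and 18.9 and 15.7 in progenitor cells (log2 change -3.4, SE 0.30, adjusted p = 3.32e-07). The SoxF factors of endothelial specification were among the strongest: Sox7 went from 23.9 and 14.3 to 0.539 and 0.4 FPKM (-5.04, adjusted p = 3.18e-07) and Sox18 from 19.5 and 5.44 to 1.43 and 0.434 (-3.53, adjusted p = 3.41e-05), while Sox17 went from 3.79 and 1.39 FPKM to the lowest value in both progenitor samples. Emcn, an endothelial sialomucin, went from 20.2 and 9.42 to 0.684 and 0.239 FPKM (-4.75, adjusted p = 1.52e-06). Ptprb, the phosphatase that acts on Tie2 and VE-cadherin, went from 23.3 and 16.7 to 1.2 and 0.359 FPKM (-4.68, adjusted p = 1.66e-06). Ramp2, the adrenomedullin receptor subunit, went from 88.1 and 33.0 to 2.72 and 2.24 FPKM (-4.40, adjusted p = 3.52e-06), and Nos3, the endothelial nitric oxide synthase, from 6.4 and 1.9 to 0.118 FPKM and the lowest value. For each of these genes both HE2 samples were above both progenitor samples, and replicate 1 of HE2 was the higher one. The lack of overlap adds no support, since the rule by which Sox7, Emcn, Ptprb and Nos3 were named required it.

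Other endothelial genes fell less or did not pass. Kdr, the VEGF receptor used as Flk1 to purify the mesoderm cells, went from 115 and 137 to 33.4 and 47.9 FPKM (-1.65, adjusted p = 0.000154). Pecam1 kept 54.7 and 64.7 FPKM in progenitor cells after 128 and 126 in HE2 (-1.09, adjusted p = 0.00986). Cd34, shared by endothelium and blood progenitors, was at 117 and 104 and then at 86.2 and 100.2 FPKM (-0.24, adjusted p = 0.822), and Podxl was at 55.8 and 48.8 and then at 49.6 and 72.0. In 28 of the 33 genes replicate 1 of HE2 was above replicate 2, by a median of 0.73 on the log2 scale, against 6405 of all 14525 genes tested (median -0.02). The muscle genes were higher in the same sample (15 of 18 genes, median 1.83). The part of this difference in the endothelial result was not tested, and 22 to 28 endothelial genes were lower under every alternative except the fit on 4 samples, where 2 were.

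Genes of Notch signaling and arterial fate were lower as well. Of 17 tested, 9 were lower, none was higher and 8 were not called, with a median log2 change of -1.18 (4 lower without both samples numbered 1). Notch1 (chr2:26457902-26503822, GRCm38.p6), the receptor of arterial and hemogenic endothelium, had 17.7 and 13.5 FPKM in HE2 and 0.732 and 1.12 in progenitor cells (log2 change -3.95, SE 0.20, adjusted p = 5.14e-10). Its progenitor values were the lowest of the 12 HE2 and progenitor samples of the series. The Notch ligand Dll4 went from 0.429 and 0.27 FPKM to the lowest value in both samples, and the target Hey2 from 1.9 and 1.0 to 0.192 and 0.177 (-2.38, adjusted p = 0.000826). Efnb2, the arterial ephrin ligand, went from 6.97 and 6.76 to 1.08 and 2.19 FPKM (-2.08, adjusted p = 0.000152), and the guidance receptor Unc5b from 15 and 6.59 to 1.92 and 0.535 (-3.15, adjusted p = 0.000186). Notch3 fell less, from 8.32 and 8.45 to 3.24 and 5.1 FPKM (-1.02, adjusted p = 0.000982). Jag1 (0.33) and Notch2 (-0.42) did not pass.

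Basement membrane and BMP signaling genes went down with the endothelial ones. Of 22 genes of the basement membrane and its receptors 17 were lower and none higher, with a median log2 change of -1.69. Col4a1 and Col4a2, the paired chains of type IV collagen, went from 202 and 112 to 12.4 and 12.8 FPKM (-3.57, SE 0.25, adjusted p = 5.28e-08) and from 122 and 61.5 to 7.95 and 10 (-3.26, adjusted p = 2.97e-07). Fn1, fibronectin, went from 484 and 684 to 76.1 and 118 FPKM (-2.60, adjusted p = 7e-06), and Hspg2, perlecan, from 36.9 and 30.6 to 3.32 and 4.79 (-3.04, adjusted p = 3.81e-07). Of 24 genes of the BMP and TGF-beta pathway 15 were lower and 1 was higher, with a median of -1.17. Without replicate 1 of HE2, 8 were lower, and 6 without both samples numbered 1. The ligand Bmp6 went from 11.9 and 4.42 to 0.242 and 0.25 FPKM (-4.41, adjusted p = 3.48e-06), the endothelial receptor Acvrl1 from 8.86 and 5.67 to 0.42 and 0.278 (-4.02, adjusted p = 3.97e-06) and the target Id3 from 71.0 and 28.4 to 5.13 and 3.51 (-3.37, adjusted p = 2.75e-07). Id1 had 32.3 and 10.4 and then 10.6 and 6.29 FPKM and did not pass (-1.16, adjusted p = 0.0568). Tgfb1 was the gene that rose, from 11.5 and 9.29 to 19.6 and 29.5 FPKM (1.21, adjusted p = 0.00788).

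Of 17 mesenchymal genes 5 were lower (Col5a2, Twist1, Hand2, Thy1 and Vim) and none higher, with a median of -1.21 (2 lower without both samples numbered 1, and 3 without replicate 1 of HE2 or replicate 2 of the progenitor cells). Hand2, a factor of cardiac and limb mesenchyme, went from 22.9 and 12.1 to 3.62 and 2.96 FPKM (-2.31, adjusted p = 0.000344), and Vim, vimentin, from 805 and 775 to 188 and 251 (-1.86, adjusted p = 8.98e-07). Muscle genes gave 1 call in each direction (Des higher and Myh7 lower, both below 1 FPKM in all 4 samples) and 16 without a call, and none of 15 epithelial genes was called. The summed FPKM of the mesenchymal genes was 919 and 814 in HE2, against 222 and 271 in progenitor cells, but most of each sum was Vim. Whether a change in cell mixture accounts for the fall of these genes was not tested.

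Among the Sp and Klf family, 6 of 21 genes were lower, 1 was higher and 14 were not called (2 lower and none higher without both samples numbered 1, and 3 lower without replicate 1 of the progenitor cells). The shear-responsive endothelial factors Klf2 and Klf4 went from 11.7 and 15.6 to 1.5 and 5.52 FPKM (-2.18, adjusted p = 0.00358) and from 2.01 and 3.1 to 0.335 and 0.537 (-2.30, adjusted p = 3.71e-05). Sp3, the factor that shares most sites with Sp1, was at 43.5 and 52.7 and then at 49.4 and 50.9 FPKM (0.07, adjusted p = 0.898). Klf15 rose from 0.0707 and 0.143 to 0.43 and 0.528 FPKM (1.5, adjusted p = 0.0101), a low level throughout.

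Proliferation genes changed little. For the lists of this paragraph, the shares over all genes tested to compare with were 6.73% higher and 9.1% lower. Of 29 genes of the G1/S transition 3 were higher (Mcm10, Ung and Rfc4, by 0.44 to 0.55), and of 24 genes of G2/M 2 were higher, none of either list being lower, and neither list had a call without both samples numbered 1. Mki67, the proliferation marker Ki-67, had 118 and 169 FPKM in HE2 and 212 and 277 in progenitor cells (0.78, adjusted p = 0.0104). Cell cycle inhibitors and p53 targets gave 6 lower and 2 higher genes of 20, including Cdkn1a, which encodes p21 (17.4 and 14.0 to 9.29 and 10.7 FPKM, -0.65, adjusted p = 0.0294), and Cdkn1c, which encodes p57 (12.9 and 6.37 to 4.35 and 2.81 FPKM, -1.35, adjusted p = 0.0257). Without both samples numbered 1 this list had 1 lower gene and none higher, and without replicate 1 of the progenitor cells 2 lower and none higher. Of 20 immediate early genes 4 were lower and 1 was higher, and the Yap targets Ctgf and Cyr61 were among the former (-3.05, adjusted p = 0.000178, and -1.76, adjusted p = 0.000258), but without both samples numbered 1 the list had 1 lower gene and none higher. Of 15 pluripotency genes 3 were lower (Klf4, Tbx3 and Lin28a), and of 25 glycolysis and hypoxia genes 3 were higher and 3 lower, with Hk1 at 10.2 and 6.83 and then at 30.8 and 23.5 FPKM (1.68, adjusted p = 0.00404) and Vegfa at 11.4 and 6.66 and then at 1.95 and 1.48 (-2.29, adjusted p = 0.00319). No glycolysis or hypoxia gene was called without both samples numbered 1, and 1 was, as lower, without replicate 2 of HE2. None of 44 ribosomal protein genes was called (median -0.05).

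The genes with the largest changes were taken by a fixed rule, 12 in each direction with a mean of at least 3 FPKM in the higher population. Beside the globins, Tubb1, Kel and Trim10, those that rose most were Slc38a5, an amino acid transporter (0.57 and 0.169 to 14.9 and 8.36 FPKM, log2 change 4.73, adjusted p = 3.4e-05), and Ncf4, a subunit of the phagocyte oxidase (from the lowest value and 0.158 to 4.85 and 3.48 FPKM, 4.71, adjusted p = 1.2e-05). Olfr419, an olfactory receptor gene, had 0.00093, which is the lowest value, and 0.51 FPKM in HE2 and 3.61 and 6.27 in progenitor cells (4.29, adjusted p = 0.00074). Hist1h4m rested on 1 sample, with 0.059 and 0.0544 and then 0.537 and 49.2 FPKM (5.16, adjusted p = 0.0396). Atp6v0c, a proton pump subunit, and its pseudogene Atp6v0c-ps2 changed places, the gene from 1.33 and 0.764 to 22.3 and 24.7 FPKM (4.41, adjusted p = 0.00824) and the pseudogene from 22.1 and 25.8 to 0.172 and 0.214 (-6.36, adjusted p = 0.0147). Their sum was 23.4 and 26.5 FPKM in HE2 and 22.5 and 24.9 in progenitor cells, so these changes are uncertain.

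Among the genes that fell most, beside Sox7, Emcn, Ptprb, Nos3 and Bmp6, were Oit3, which has a zona pellucida domain (78.1 and 28.6 to 1.49 and 0.874 FPKM, log2 change -5.25, adjusted p = 7.34e-07), and Fbn1, the microfibril protein fibrillin-1 (52.0 and 30.7 to 2.28 and 0.888 FPKM, -4.71, adjusted p = 1.05e-05). Madcam1, an endothelial addressin, fell from 4.91 and 2.5 FPKM to the lowest value and 0.151, and Pdlim3, a LIM protein of muscle, from 6.15 and 2.06 to 0.17 FPKM and the lowest value. Ushbp1 fell from 11.6 and 5.07 to 0.363 and 0.139 FPKM, and Slc26a10 from 5.27 and 1.33 FPKM to the lowest value in both samples. In all of these genes replicate 1 of HE2 had the higher value.

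Of 111 called genes followed through the alternatives, 90 kept their call when each of the 4 samples was left out in turn, 79 without both samples numbered 1 and 99 without both numbered 2. Without replicate 1 of HE2 the adjusted p rose to 0.238 for Hba-a1, 0.177 for Mki67, 0.233 for Cdkn1a, 0.297 for Cdkn1c, 0.108 for Klf15, 0.0552 for Vegfa and 0.0504 for Pdlim3. Without replicate 1 of the progenitor cells the adjusted p was 0.12 for Pf4, 0.0865 for Pecam1, 0.112 for Klf2, 0.0761 for Gfi1 and 0.0549 for Lmo2. Without replicate 2 of the progenitor cells it was 0.0892 for Tgfb1 and 0.454 for Hist1h4m, and without replicate 2 of HE2 it was 0.0514 for Hk1 and 0.0557 for Atp6v0c. None of these genes changed direction. The 111 genes were picked for large changes, as list members or after their values were seen. The share of them that kept a call therefore does not stand for all calls of the step. Genes that passed with every single sample left out but not without both samples numbered 1 included Hbb-bt (adjusted p = 0.0752), Olfr419 (0.0505), Tfrc (0.172), Aqp1 (0.063), Csf1r (0.0776), Pdgfb (0.0886), Hey2 (0.0739), Dll4 (0.0627), Notch3 (0.0989) and Cyr61 (0.0524), and Gfi1b did not pass without both numbered 2 (0.0713). The proliferation lists had no call without replicate 1 of HE2.

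The same step in WT and Sp3KO cells used other samples. All samples were normalised together and fitted in a single model with a shared spread per gene, so the calls of the steps are not independent. In WT 793 genes were higher (5.46%) and 1130 lower (7.78%), and in Sp3KO 430 were higher (2.96%) and 844 lower (5.81%). With each genotype fitted on its own 4 samples, 90 genes were called in Sp1_deltaDBD, 0 in WT and 1192 in Sp3KO cells. The order of the genotypes by number of calls thus depended on the shared spread. Over the 14525 genes, which are not independent of each other, the log2 change in Sp1_deltaDBD cells had a Pearson correlation of 0.745 with that in WT and of 0.687 with that in Sp3KO (Spearman 0.638 and 0.609). Of the 2299 genes called in Sp1_deltaDBD cells, 1338 were called in the same direction in WT (58.2% of the Sp1_deltaDBD calls and 69.6% of the WT calls), and 963 in Sp3KO (41.9% and 75.6%). No gene was called in opposite directions in either pair, and 96.5% of the Sp1_deltaDBD calls had the same sign in WT.

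**Figure D3:**
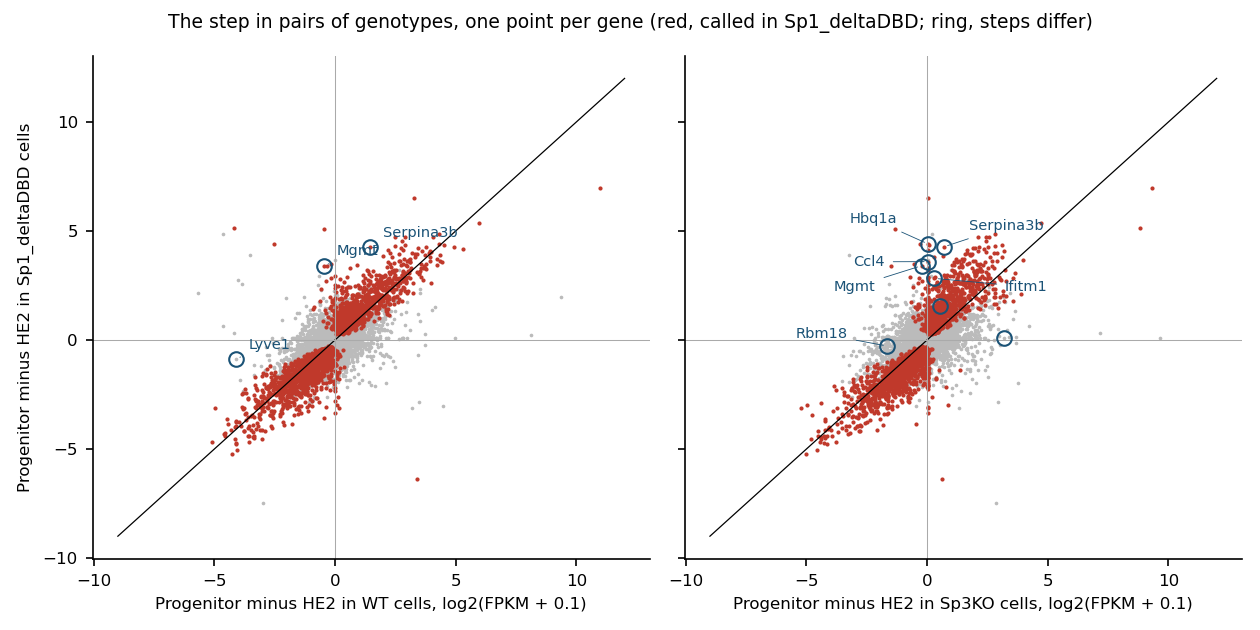
Change from HE2 to progenitor cells in Sp1_deltaDBD cells (y axis) against that in WT (left) and Sp3KO cells (right), all on the log2(FPKM + 0.1) scale, 1 point per gene for 14525 genes, with the line of equality. Red points were called in Sp1_deltaDBD cells, and rings mark the 3 and 8 genes whose steps differed, most of them named.

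Tests of the difference between steps called few genes. The step differed between Sp1_deltaDBD and WT for 3 of 14525 genes by limma's interaction term (0.0207%). In that comparison 751 genes (5.17%) had an unadjusted p below 0.05. Between Sp1_deltaDBD and Sp3KO the step differed for 8 genes (0.0551%), and 935 (6.44%) had an unadjusted p below 0.05. The list medians stood side by side as follows. Globin genes had a median log2 change of 4.31 in Sp1_deltaDBD, 3.68 in WT and 1.56 in Sp3KO cells, with 9, 8 and 3 genes called higher. Erythroid genes had medians of 3.11, 2.80 and 1.47 with 19, 17 and 11 called higher, and megakaryocyte genes 1.21, 0.81 and 0.76 with 17, 11 and 6. Endothelial genes had medians of -2.72, -2.95 and -2.14 with 27, 30 and 25 called lower. Within these lists the difference itself passed for Lyve1 against WT and for Hbq1a against Sp3KO, and for no other gene.

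**Figure D4:**
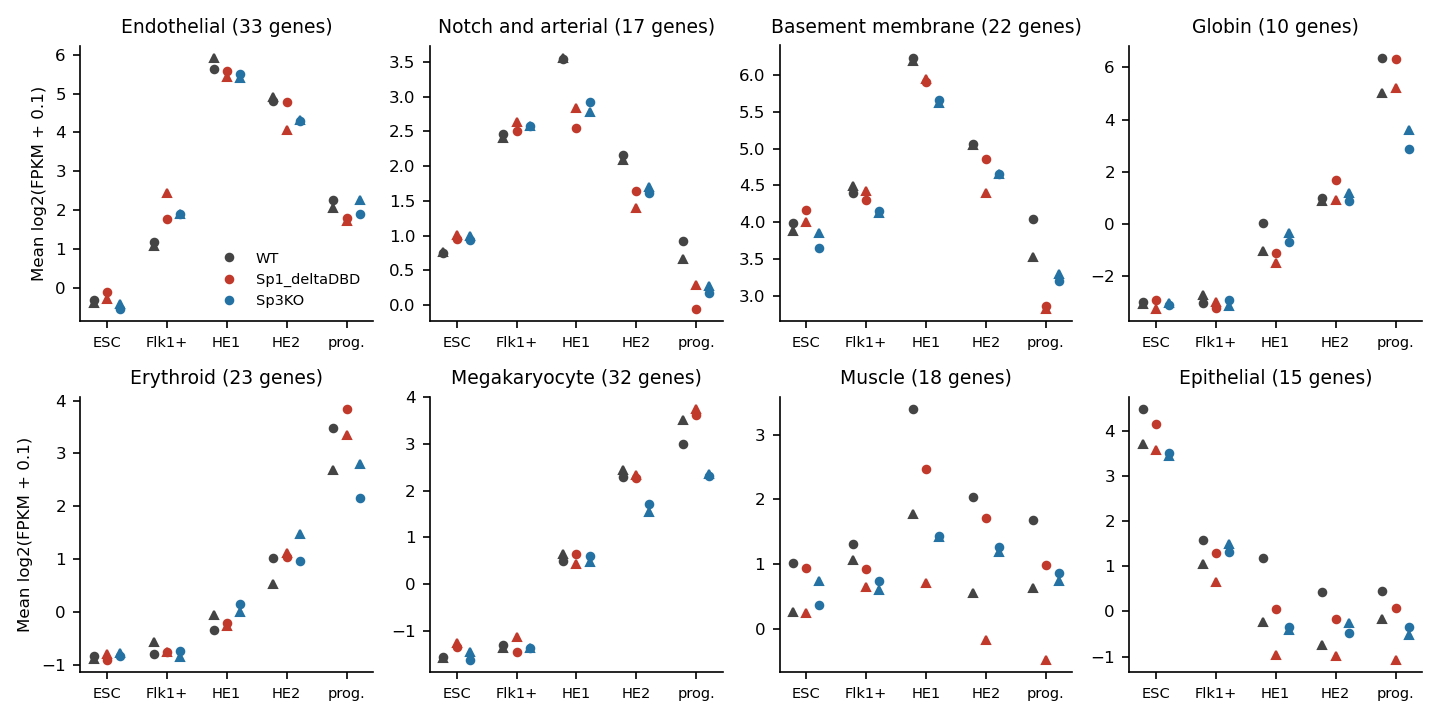
Mean log2(FPKM + 0.1) of the genes of 8 lists in each of the 30 samples, by population (ESC, Flk1+, HE1, HE2 and progenitor, prog.) and genotype (gray WT, red Sp1_deltaDBD, blue Sp3KO), circles replicate 1 and triangles replicate 2. Globin and erythroid levels are highest in progenitor cells of all 3 genotypes, endothelial levels peak in HE1, and the muscle panel shows replicate 1 above replicate 2 in WT and Sp1_deltaDBD cells at every population.

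Mgmt, which encodes the enzyme that removes alkyl groups from guanine in DNA, had the largest difference from WT of the 3 genes called. The gene spans chr7:136894463-137128193 (GRCm38.p6). In Sp1_deltaDBD cells it was at 9.79 and 4.11 FPKM in ESC, at 0.203 and 0.0324 in Flk1+ cells, at the lowest value in both HE1 and both HE2 samples, and at 1.22 and 0.779 in progenitor cells. WT cells had 16.5 and 13.7 FPKM in HE2 and 10.2 and 11.8 in progenitor cells, and Sp3KO cells 9.19 and 10.7 and then 7.79 and 9.14. Mgmt was thus present throughout WT and Sp3KO, and in Sp1_deltaDBD progenitor cells it was detected again at a level below every WT sample. The interaction with WT was 3.85 on the log2(FPKM + 0.1) scale (SE 0.50, adjusted p = 0.00403) and that with Sp3KO 3.64 (adjusted p = 0.00231), sizes that depend on the added 0.1. The call against WT was lost with 1 added in its place, and both were lost without the 2 samples numbered 1.

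Promoter windows of 3 genes are shown for their GC boxes, the letters that Sp1 is known to bind: Mgmt and Serpina3b, whose steps differed from those of both other genotypes, and Notch1, which had the smallest adjusted p of the step. Each runs from 250 bases before to 50 bases after an annotated start, from RefSeq (GRCm38.p6), 5′ to 3′ on the gene's strand. Matches to GGGCGG or its reverse complement CCGCCC are in capitals.
Mgmt, chr7:136894336-136894635 (plus strand): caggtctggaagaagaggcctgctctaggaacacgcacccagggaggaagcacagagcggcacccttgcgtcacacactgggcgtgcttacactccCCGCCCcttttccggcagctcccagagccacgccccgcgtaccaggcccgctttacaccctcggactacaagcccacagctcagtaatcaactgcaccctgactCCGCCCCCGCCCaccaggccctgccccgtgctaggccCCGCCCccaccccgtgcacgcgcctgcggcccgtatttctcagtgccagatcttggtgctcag
Notch1, chr2:26503773-26504072 (minus strand): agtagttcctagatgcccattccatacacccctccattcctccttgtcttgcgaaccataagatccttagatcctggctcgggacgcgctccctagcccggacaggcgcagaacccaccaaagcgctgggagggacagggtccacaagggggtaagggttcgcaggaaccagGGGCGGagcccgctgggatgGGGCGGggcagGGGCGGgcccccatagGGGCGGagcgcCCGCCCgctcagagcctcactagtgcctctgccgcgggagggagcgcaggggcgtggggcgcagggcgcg
Serpina3b, chr12:104127746-104128045 (plus strand): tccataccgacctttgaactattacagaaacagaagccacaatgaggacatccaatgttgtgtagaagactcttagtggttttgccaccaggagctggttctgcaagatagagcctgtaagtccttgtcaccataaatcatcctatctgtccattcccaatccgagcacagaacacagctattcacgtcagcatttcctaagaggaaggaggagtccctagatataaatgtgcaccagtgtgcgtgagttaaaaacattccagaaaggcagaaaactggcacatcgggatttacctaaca
The Mgmt window held 4 GC boxes, the Notch1 window 5 and the Serpina3b window 0, and a second annotated Mgmt start held 0. On either strand the letters occurred in 35.7% of all 32851 windows in the RefSeq table, in 60.8% of the windows of the 11029 tested genes that had one, in 60.5% of those of genes higher in Sp1_deltaDBD progenitor cells and in 63.6% of those of genes lower there. A match is a description of the letters and not of binding.

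Lyve1, a hyaluronan receptor of early hemogenic and later lymphatic endothelium (chr7:110850607-110862953, GRCm38.p6), fell in WT from a level that Sp1_deltaDBD HE2 cells did not have. In Sp1_deltaDBD cells it had 3.59 and 2.87 FPKM in HE2 and 1.82 and 1.62 in progenitor cells (log2 change -0.87, adjusted p = 0.0674). WT cells had 47.3 and 33.2 FPKM in HE2 and 1.49 and 3.27 in progenitor cells (-4.10, adjusted p = 1.23e-07). The interaction was 3.23 (SE 0.44, adjusted p = 0.00429). Progenitor levels thus overlapped between genotypes while HE2 levels did not, and Sp3KO cells, with 2.78 and 2.99 FPKM and then 1.44 and 1.45, had values like those of Sp1_deltaDBD cells (interaction 0.08, adjusted p = 0.999). The call was lost when only the 12 HE2 and progenitor samples were fitted.

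Serpina3b, a serine protease inhibitor (chr12:104127986-104139546, GRCm38.p6), is named although its mean stayed under 3 FPKM, a choice made after its values were seen. It was listed at the lowest value in both Sp1_deltaDBD HE2 samples and had 1.86 and 1.85 FPKM in progenitor cells. WT cells went from 0.143 and 0.123 to 0.405 and 0.715 FPKM. The interaction was 2.81 against WT (adjusted p = 0.0463) and 3.58 against Sp3KO (adjusted p = 0.00231), and the call against WT held in 5 of the 16 alternatives. Notch1 fell by 3.95 in Sp1_deltaDBD, 2.65 in WT and 2.91 in Sp3KO cells on the log2 scale, and Ptpn6 rose by 2.60, 1.21 and 1.43. Neither difference from WT passed over all genes (adjusted p = 0.23 and 0.26).

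**Figure D5:**
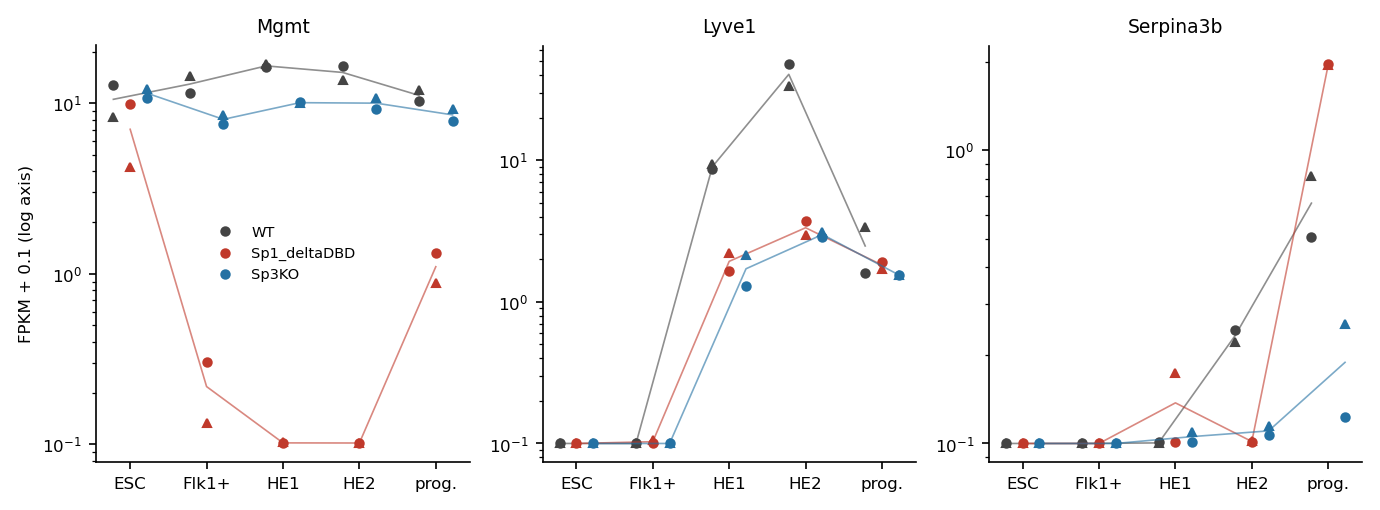
FPKM + 0.1 (log axis) of Mgmt, Lyve1 and Serpina3b in ESC, Flk1+, HE1, HE2 and progenitor (prog.) cells of WT (gray), Sp1_deltaDBD (red) and Sp3KO (blue), with circles for replicate 1, triangles for replicate 2 and lines through the means. In Sp1_deltaDBD cells Mgmt and Serpina3b are at the floor in HE2 and above it in progenitor cells (1.22 and 0.779, and 1.86 and 1.85 FPKM), and Lyve1 lacks the HE2 peak of WT (47.3 and 33.2 FPKM).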

How the data were processed

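RNA-seq libraries (TruSeq Stranded Total RNA) were made from 2 biological replicates of 5 populations and 3 genotypes, 30 samples in all. The authors trimmed the reads, aligned them to mm10 with HISAT2 2.1.0, estimated FPKM with StringTie 1.3.3 and quantile-normalised the FPKM values, and deposited 1 table of 14685 genes. No counts were used, so depth is unknown and precision rests on 2 replicates a group. Near-identical copies can exchange estimated reads.

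FPKM columns were matched to the labels. Genes with a maximum above 1 FPKM (14525) were tested on log2(FPKM + 0.1) with limma 3.58.1 in R 4.3.3, with means for 15 groups over 30 samples, empirical Bayes moderation with a trend (15 residual and 3.92 prior degrees of freedom), and Benjamini-Hochberg adjustment within each contrast at 0.05. Contrasts were the step in each genotype and its differences from WT and Sp3KO. Fold changes on this scale understate those of low genes. Exact permutation of 2 against 2 cannot go below p = 0.333. The script was tested on simulated data. Tables and plots used Python 3.11.15, pandas 2.3.3 and matplotlib 3.10.9.

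Named genes were of 3 kinds: the 12 largest changes in each direction among called genes that do not overlap between populations and have a mean of at least 3 FPKM in the higher one (predicted genes and small RNAs left out), the genes whose step differed, and members of the gene lists. The lists, the comparison and the named list members were chosen with earlier results of these data known. Alternatives were a pseudocount of 1, other filters, a replicate block, fits on fewer samples, median centring, leaving out each replicate, and, chosen after seeing the data, leaving out both same-numbered Sp1_deltaDBD samples. RefSeq (GRCm38.p6) held 14209 of the symbols in the table, and 11029 of the genes tested had a promoter window. A few genes that enter the counts are not reported here by name.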

Additional observations from a re-analysis of the deposited data

Results flagged for a closer look

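Genes are given here because the change from HE2 to progenitor cells differed between genotypes by limma's interaction term, with adjustment over 14525 genes. Against WT, the step of Sp1_deltaDBD cells was higher by 3.85 for Mgmt (SE 0.50, adjusted p = 0.00403), by 3.23 for Lyve1 (SE 0.44, adjusted p = 0.00429) and by 2.81 for Serpina3b (SE 0.47, adjusted p = 0.0463), all on the log2(FPKM + 0.1) scale. Mgmt and Serpina3b were at the lowest value in both Sp1_deltaDBD HE2 samples, so these sizes depend on the added 0.1.

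Against Sp3KO, the step was higher by 3.64 for Mgmt, 3.58 for Serpina3b and 4.35 for Hbq1a (adjusted p = 0.00231 for each). Hbq1a, a theta-globin, was near the lowest value in all 4 Sp3KO samples and reached 2.2 and 1.91 FPKM in Sp1_deltaDBD and 2.05 and 1.78 in WT progenitor cells. Ccl4, a chemokine, differed by 3.54 (adjusted p = 0.0157), and in Sp1_deltaDBD cells it went from the lowest value to 1.43 and 0.883 FPKM. Ifitm1, an interferon-induced membrane protein, differed by 2.53 (adjusted p = 0.0287), going from 3.11 and 1.97 to 16.8 and 19.7 FPKM in Sp1_deltaDBD and from 7.45 and 10.6 to 14.1 and 8.48 in Sp3KO cells.

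For the other genes the Sp3KO step was the one that moved. Rbm18, an RNA-binding protein, differed by 1.37 (adjusted p = 0.00231): it was at 19.4 and 16.0 and then at 5.23 and 5.92 FPKM in Sp3KO cells but at 17.8 and 17.6 and then at 15.8 and 13.4 in Sp1_deltaDBD cells. The transcript 4930461G14Rik differed by -3.12 (adjusted p = 0.0178), being at the lowest value in all 4 Sp1_deltaDBD samples and at 1.0 and 0.829 FPKM in Sp3KO progenitor cells. Chance alone would put a share of about 0.05 of the genes past an unadjusted threshold of 0.05. Against WT and Sp3KO, 751 and 935 genes (5.17% and 6.44%) had an unadjusted p below 0.05.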

How the results depend on the processing

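For the step in Sp1_deltaDBD cells (2299 calls), every alternative kept the direction of all named genes that were called, but the counts moved. A fit on the 12 HE2 and progenitor samples gave 1396 calls (1350 shared), 1079 in WT and 585 in Sp3KO cells, and 4 for the difference from Sp3KO. The fit on the 4 samples of a genotype gave 90 in Sp1_deltaDBD, 0 in WT and 1192 in Sp3KO cells by limma. In these fits 2258, 2412 and 3904 genes had an unadjusted p below 0.05. Leaving out single samples gave 1503 to 2363 calls in Sp1_deltaDBD, 1268 to 1629 in WT and 597 to 986 in Sp3KO cells, 2 to 29 for the difference from WT (29 without replicate 2 of WT progenitor cells) and 4 to 22 for that from Sp3KO. Without both Sp1_deltaDBD samples numbered 1 there were 979 calls for the step and 5 for the difference from WT, and without both numbered 2 there were 9 and, against Sp3KO, 13. The lone samples were then assumed to vary like the other groups. With a pseudocount of 1 the difference from Sp3KO had 50 calls, and with a mean of at least 1 FPKM it had 2. Beyond fewer samples or genes, the cause was not tested.

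Replicate numbers are not stated to mark shared cultures. Deviations of same-numbered HE2 and progenitor samples correlated at 0.433 in Sp1_deltaDBD, 0.38 in WT and 0.0317 in Sp3KO cells. A replicate block per genotype gave 3269 calls in Sp1_deltaDBD, 2945 in WT and 2048 in Sp3KO cells, and 17 and 38 for the differences from WT and Sp3KO. Whether same-numbered samples came from the same culture cannot be told with 2 pairs a genotype and no label, and the main fit did not pair them.

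Some genes without a call changed sign. With single Sp1_deltaDBD samples left out the log2 change ranged from -0.44 to 0.026 for Sp1 (0.02 without replicate 2 of HE2), -0.072 to 0.21 for Sp3, -0.42 to 0.52 for Kit (-0.26 without replicate 2 of progenitor cells), -0.84 to 0.17 for Itga2b, -2.68 to 6.6 for Hbb-bs and -0.65 to 1.75 for Runx1 (-0.45 without replicate 1 of HE2). Without both samples numbered 1 it was -0.052 for Sp3, -0.12 for Kit, 0.046 for Itga2b and -0.88 for Hbb-bs.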

Other observations

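Among the genes that fell in Sp1_deltaDBD cells were 4 known to be imprinted by parent of origin, picked after their values were seen and not as a list. Igf2, a fetal growth factor, had 581 and 501 FPKM in HE2 and 42.5 and 22.9 in progenitor cells (log2 change -4.11, limma adjusted p = 3.97e-06), and its neighbor H19, a noncoding RNA, had 18.2 and 8.99 and then 3.86 and 0.669 (-2.89, adjusted p = 0.00186, and 0.0512 without replicate 2 of the progenitor cells). H19 started from 309 and 249 FPKM in WT HE2. Mest had 843 and 725 and then 118 and 129 FPKM (-2.66, adjusted p = 1.57e-06), and Peg3 had 114 and 84.3 and then 28.0 and 20.6 (-2.02, adjusted p = 6.48e-05). These 4 also fell in WT and Sp3KO cells.

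Further genes that rose, likewise picked after the fact, included Hemgn, a nuclear protein of blood progenitors (1.38 and 1.22 to 31.9 and 14.3 FPKM, 3.94, adjusted p = 2.41e-06), Tuba4a (2.48 and 2.45 to 29.5 and 27.8 FPKM, 3.49, adjusted p = 5.28e-08) and Smox, spermine oxidase (3.43 and 3.84 to 27.2 and 31.5 FPKM, 2.98, adjusted p = 1.87e-06). The ribosomal protein gene Rps27 was at 7.37, 6.06 and 10.5 FPKM in 3 of the Sp1_deltaDBD samples and at 965 in the progenitor replicate 2, and it switched between such levels in the other genotypes too.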
